A study of Schizosaccharomyces pombe with 6 samples.

Results

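Small RNA peaks in the untranslated regions (UTRs) of mRNAs were examined in fission yeast, Schizosaccharomyces pombe. A UTR peak was one that touched an exon of exactly 1 annotated protein-coding gene, no coding sequence (CDS) and no gene for a long non-coding RNA, tRNA, rRNA, snRNA or snoRNA. Of 11033 peaks, 1487 met this rule, 175 in the 5' UTRs of 143 genes and 1312 in the 3' UTRs of 939 genes. They were set against the 2202 peaks that lay inside CDS. Every base lay in the UTR for 131 of the 5' UTR peaks and 1138 of the 3' UTR peaks, and the median width was 44 bp in 5' UTRs and 50 bp in 3' UTRs.

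The 6 libraries hold gel-purified RNA of 18 to 28 nt from cultures grown in rich YES medium. They are 1 library of strain spb309, labelled dcr delta, at 30 °C, 1 library of wild-type strain spb75 after 8 h at 37 °C, 1 of spb75 after 7 d at 37 °C, 2 of spb75 at 30 °C and 1 of wild-type strain spb80 at 30 °C. No treatment beyond temperature is labelled, and the labels name no further allele or marker of any strain and no separate cultures, so p-values measure only the spread between these libraries, which may be technical. Reads in peaks ranged from 5790804 to 15723318 per library.

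A UTR is the part of an mRNA before (5') or after (3') the coding sequence. The 5' UTR is scanned by the ribosome on its way to the start codon, and the 3' UTR holds the signal for cleavage and polyadenylation and binding sites for proteins that set mRNA stability. Dicer cuts double-stranded RNA into siRNA, which in fission yeast guides heterochromatin formation at pericentromeric repeats. Short fragments of an mRNA can also enter a small RNA library as products of its turnover. The peak list gives every peak the same strand sign, so reads from a UTR and from a transcript antisense to it cannot be told apart.

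Neither dcr1, which encodes Dicer, nor hsp104, a disaggregating chaperone named with Dicer in the series title, had a UTR peak by this rule. The 5 peaks on dcr1 comprised 1 in its CDS and 4 that touched several coding genes, and their normalised signal (reads per peak of mean width, scaled between libraries) summed to 321 in the library labelled dcr delta, against 60.2 in spb80 and 49.9 and 58.1 in spb75 at 30 °C. Which stretch of dcr1 was removed is not labelled, so these peaks check nothing about the genotype. Of 8274 peaks of every class tested, 72 fell and 2 rose in the library labelled dcr delta (limma, Benjamini-Hochberg adjusted p under 0.05).

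The peaks that later results turn on are shown by up to 30 bases at their centre, read 5' to 3' on the strand of the gene from the RefSeq assembly ASM294v3. Of the 13 UTR peaks that rose after 8 h at 37 °C, 12 come first, and 4 of the peaks with the highest mean signal follow.
SPBC24C6.03 peak centre, upstream of the annotated 5' UTR, chrII:2322902-2322931, plus strand: tttatttggacgaacccagcgcctatttcg
msy1 5' UTR, chrIII:619297-619326, plus strand: atctaaactcaactctaaagaccggtttgc
zym1 5' UTR, chrI:2381671-2381700, plus strand: aagcgtgcttgagacaatcgactttcaaca
zym1 3' UTR, chrI:2381964-2381993, plus strand: ttttcgaagcatcagtcgagaaaacaatac
ies6 3' UTR, chrI:950119-950148, minus strand: aaaatattcttggacgtcgacgtcgccgtg
mtl3 3' UTR, chrII:4057934-4057963, plus strand: tattactattaaacctggcttatatctttg
mtl3 3' UTR, chrII:4057973-4058002, plus strand: ctgctacttaaatttttcgtcgaaggcttt
SPCC1393.12 3' UTR, chrIII:824259-824288, plus strand: taaaccaactgaacccaaatgattagcgat
pex7 3' UTR, chrI:4724584-4724613, plus strand: ataatatgatttttggcatttggcataaaa
SPBC725.03 3' UTR, chrII:1208113-1208142, plus strand: atcctatgtcaaatttccaatccggccact
avl9 3' UTR, chrI:2523325-2523354, plus strand: tactacccaatctagttatttctacaactg
alp31 3' UTR, chrI:3377784-3377813, plus strand: gatcatgaaaaggttctacgttcatcattc
pma1 5' UTR, chrI:3875381-3875410, minus strand: aactcgtcgtgtttgtgagatcttcccttt
gpi12 3' UTR, chrI:2705879-2705908, minus strand: aaatctatgactcactactgtagaattgca
act1 3' UTR, chrII:1475979-1476008, minus strand: attattggagtgttttatatactttctgat
eno101 3' UTR, chrII:2202596-2202625, plus strand: catgtttatttttatagaatgcaatgaaat
The SPBC24C6.03 peak overlaps the 5' UTR, but the bases shown for it lie before the annotated transcript start, and the ies6 peak runs past the annotated transcript end. No base is in capitals because none of these stretches held a searched motif on the gene strand. The motifs were the hexamer AATAAA, the run TTTTTT, the run AAAAAA, the heptamer TGTANAT, where N is any base, and in 5' UTRs the start triplet ATG. The G+C content of the whole peak had a median of 38.6% over the 13 peaks that rose at 8 h, with a range from 26.5 to 48.7%.

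Peaks were densest in 3' UTRs. Only bases that met the rule taken singly were counted as eligible, without regard to the width of a peak. They came to 402.8 kb of 5' UTR, 807.9 kb of 3' UTR and 3117 kb of CDS. The 5' UTRs held 0.434 peaks per kb (95% Poisson interval 0.372 to 0.504), the 3' UTRs 1.62 (1.54 to 1.71) and CDS 0.706 (0.677 to 0.737). The 3' UTR density was 2.30 times that of CDS and 3.74 times that of 5' UTRs, and the 5' UTR density was 0.615 times that of CDS. A UTR peak could run outside its UTR, whereas a CDS peak had to lie wholly inside CDS, and 629 peaks only partly inside CDS were in neither class. With every base in the UTR the densities were 0.325 in 5' UTRs and 1.41 in 3' UTRs. The intervals cover counting error only, and 1 peak list for all libraries gives no replicate for the density.

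The same order held for bases. Of eligible bases, 3.36% in 5' UTRs, 12.4% in 3' UTRs and 6.33% in CDS lay inside a peak of any class. Among genes with at least 100 eligible bases, 112 of 1231 (9.098%) had a 5' UTR peak, 876 of 2593 (33.8%) a 3' UTR peak and 1133 of 3421 (33.1%) a CDS peak. Only 47 of the 1035 genes with a UTR peak had one in both UTRs, and 61 of the 143 genes with a 5' UTR peak and 358 of the 939 with a 3' UTR peak also had a peak in CDS.

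**Figure D1:**
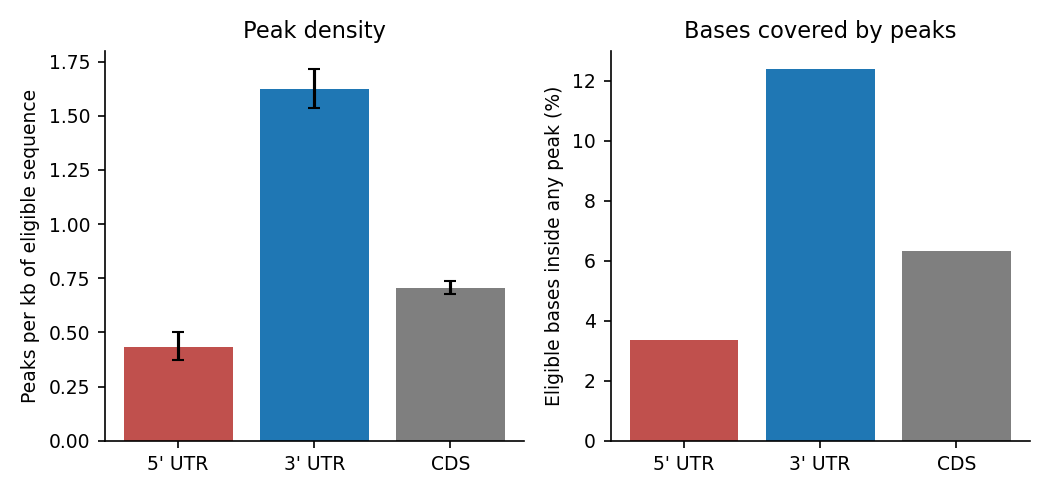
Peak density (left, peaks per kb of eligible sequence, bars with 95% Poisson intervals) and the percentage of eligible bases inside any peak (right) for 5' UTRs, 3' UTRs and CDS. The 3' UTR bar is the highest in both panels, at 1.62 peaks per kb and 12.4% of bases.

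Most genes had a single UTR peak, 125 of 143 for 5' UTRs and 671 of 939 for 3' UTRs. The 3' UTR of ecl2 held the most, 7 peaks, followed with 5 each by anp1, a mannan polymerase subunit, gpa2, a G protein alpha subunit, the protein kinases gsk31 and hhp1, skb15, an inhibitor of p21-activated kinase, and tif51, which encodes eIF5A. In 5' UTRs, fil1, a GATA-type transcription factor, had 6 peaks, ole1, a fatty acid desaturase, had 5, SPBC19C7.04C, an uncharacterized protein, had 5, and 4 genes had 3 each (SPBC1703.13C, annotated as an inorganic phosphate transporter, the sterol demethylase gene erg11, the plasma membrane proton pump gene pma1 and pqr1, a ubiquitin ligase). Peaks in 1 UTR share a transcript and are not independent of each other.

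Position differed between the UTRs. The centre of a 5' UTR peak lay a median of 194 nt upstream of the CDS and 102 nt downstream of the transcript start, in UTRs of median length 332 nt. The centre of a 3' UTR peak lay a median of 193 nt downstream of the CDS and 156 nt upstream of the annotated transcript end, in UTRs of median length 383 nt. The centre of 107 of the 3' UTR peaks and 11 of the 5' UTR peaks lay outside the annotated transcript.

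Bases of 3' UTRs were covered at 15.0% within 50 nt of the CDS and at 13.1 to 14.0% between 50 and 500 nt. Coverage was 9.34% from 500 to 1000 nt and 2.37% farther out. Counted from the transcript end, coverage was 11.1% within 50 nt, was highest at 18.3% from 100 to 150 nt and was 7.80% from 300 to 500 nt. Bases of 5' UTRs were covered at 5.81% within 50 nt of the CDS and 5.60% within 50 nt of the transcript start, and at 1.13 to 3.23% in every other bin. Coverage counts peaks that run in from CDS. Centres of 3' UTR peaks stood at 0.890 per kb in the first 50 nt after the CDS and at 2.17 per kb from 150 to 200 nt. Peaks that touch CDS are outside the rule, so at a median width of 50 bp few centres could lie next to the CDS. The lower value in the first 50 nt therefore follows in part from the rule.

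**Figure D2:**
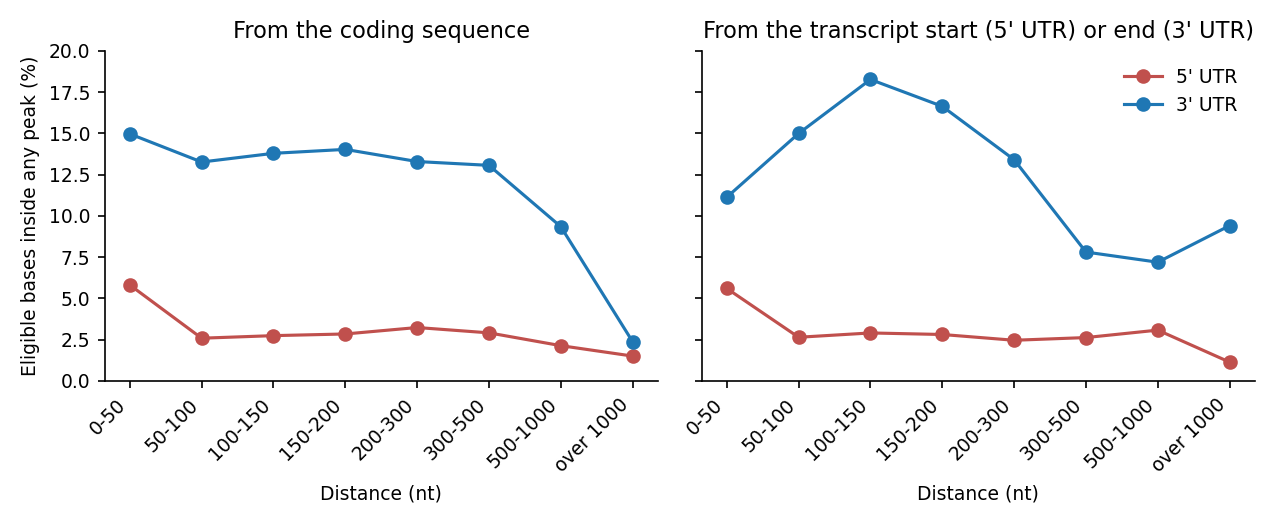
Percentage of eligible UTR bases inside any peak (y axis) by distance in nt from the CDS (left) and from the transcript start for 5' UTRs or the transcript end for 3' UTRs (right). The 3' UTR line peaks at 18.3%, 100 to 150 nt before the transcript end, and the 5' UTR line stays below 6% throughout.

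The gene downstream was more often convergent, that is, transcribed towards the 3' UTR, where a 3' UTR peak lay. Convergent pairs held 871 of the 1312 3' UTR peaks (66.4%) in 48.8% of the eligible 3' UTR sequence, and tandem pairs held 440 (33.5%) in 51.03%. Density was 2.21 peaks per kb in convergent pairs and 1.07 in tandem pairs. Stretches covered by exons of 2 coding genes were outside the rule, so the overlapping ends of convergent transcripts are not part of these values, and whether reads came from the neighbour's transcript was not tested.

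UTR peaks were richer in G+C than all windows of the same UTR class and held fewer runs of A or T, and CDS peaks differed from CDS windows in the same directions. In windows of 51 bases, G+C was 36.7% at 5' UTR peaks against 31.0% over all 5' UTR windows, and 34.1% at 3' UTR peaks against 29.7% over all 3' UTR windows. CDS peaks showed a smaller difference, 42.5% against 39.6%. The run TTTTTT occurred on the gene strand in 122 of 1312 3' UTR peak windows (9.30%), against 16.5% of all 3' UTR windows, and AAAAAA in 3.43%, against 7.50%. The letters AATAAA, a form of the polyadenylation signal, were in 4.04% of 3' UTR peak windows, against 7.16% of all windows. The letters TGTANAT, the core bound by Pumilio proteins, were in 3.58% of 3' UTR peak windows and 3.57% of all 3' UTR windows. On the other strand TTTTTT was in 3.43% of 3' UTR peak windows, against 7.50% of all windows, AATAAA in 8.00%, against 14.5%, and TGTANAT in 3.35%, against 3.43%. In 5' UTRs, ATG was in 24 of 175 peak windows (13.7%), against 17.3% of all 5' UTR windows, and TTTTTT in 15.4%, against 19.8%. A match is a description of the letters, and motifs can overlap. Windows at peaks could run outside the UTR or CDS, whereas the windows they were set against lay wholly inside eligible sequence. These sets are therefore not fully alike.

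UTR peaks were a small share of each library. The 5' UTR peaks took 0.131% of peak reads in the library labelled dcr delta, 0.0776% after 8 h at 37 °C, 0.116% after 7 d, 0.122 and 0.229% in spb75 at 30 °C and 0.133% in spb80. The 3' UTR peaks took 0.964% in the library labelled dcr delta (95% Wilson interval 0.957 to 0.971), 0.569% after 8 h (0.565 to 0.573), 0.685% after 7 d (0.679 to 0.691), 0.877% (0.872 to 0.881) and 1.25% (1.24 to 1.26) in spb75 at 30 °C and 0.842% (0.837 to 0.848) in spb80. Both shares were lowest after 8 h at 37 °C, but the spb75 libraries at 30 °C differed from each other by more than the 8 h library differed from the nearer one. CDS peaks took 1.74% after 8 h, 2.95% after 7 d and 3.57 and 6.22% in spb75 at 30 °C.

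Reads of UTR peaks over reads of CDS peaks need no scaling between libraries. This ratio was 0.371 after 8 h, 0.272 after 7 d and 0.280 and 0.237 in spb75 at 30 °C. It was 0.282 in the library labelled dcr delta and 0.248 in spb80. The 8 h library had the highest ratio of the 6. With 1 library against 2, an exact permutation test cannot go below p = 0.333, so the difference was not tested.

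Within a library, a typical 3' UTR peak held less signal than a typical CDS peak, and a typical 5' UTR peak held about as much. The median normalised signal of 3' UTR peaks was 36.1 in the library labelled dcr delta, 39.6 after 8 h, 34.9 after 7 d, 35.5 and 32.9 in spb75 at 30 °C and 34.0 in spb80. For CDS peaks it was 44.9, 48.5, 45.9, 47.2, 52.5 and 43.9 in the same order of libraries. The log2 difference of 3' UTR minus CDS medians averaged -0.40 ± 0.13 (SD, n = 6 libraries) and was below 0 in 6 of 6 (2-sided exact sign-flip permutation test, p = 0.0312, the smallest 6 libraries allow; adjusted over 3 pairs of classes, 0.0469). The 5' UTR minus 3' UTR difference averaged 0.48 ± 0.07 and was above 0 in 6 of 6 (exact permutation p = 0.0312, adjusted 0.0469). The 5' UTR minus CDS difference averaged 0.08 ± 0.10, with 1 library of 6 below 0 (exact permutation p = 0.125, adjusted 0.125), and it turned to -0.07 on reads not divided by peak width and to -0.18 over the higher 75% of peaks. The 6 libraries are not replicates of 1 condition, and this test treats each as 1 observation of the difference. All 6 share 1 peak list, so p measures how alike the libraries are and not the spread between peaks.

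**Figure D3:**
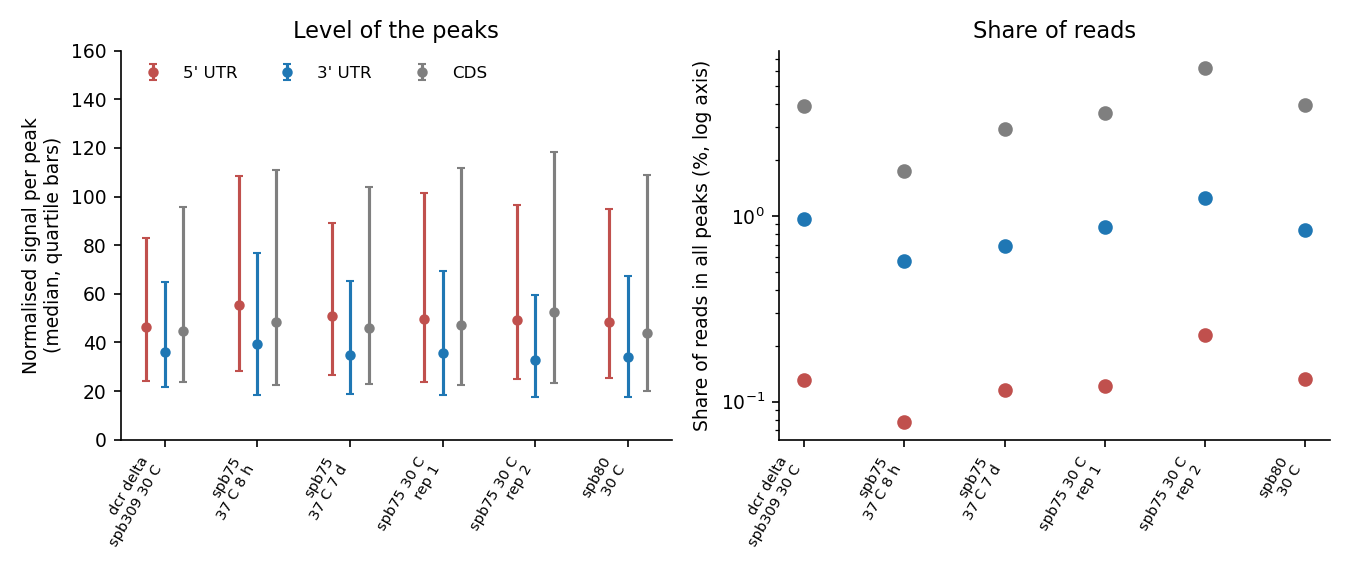
Median normalised signal per peak with bars from the lower to the upper quartile (left) and share of all peak reads in percent on a log axis (right), by library, for 5' UTR, 3' UTR and CDS peaks. The 3' UTR median lies below the CDS median in each of the 6 libraries, and CDS takes the largest share of reads.

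The highest 5' UTR peaks lay in 4 genes. Of the 8 with the highest mean, 3 were in pma1, 3 in ole1, 1 in mtl3 and 1 in ssc1, the mitochondrial Hsp70. The pma1 peak 716 nt upstream of the CDS had a normalised signal of 385 in the library labelled dcr delta, 202 after 8 h, 491 after 7 d, 376 and 608 in spb75 at 30 °C and 659 in spb80. The 8 h value was the lowest of the 6 at each of the 3 pma1 peaks.

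The highest 3' UTR peaks were in gpi12, which acts in GPI anchor synthesis, act1 (actin, 2 peaks), eno101 (enolase), rps13 (a small-subunit ribosomal protein), chl1 (a DNA helicase), por1 (the mitochondrial porin) and gpd1 (glycerol 3-phosphate dehydrogenase). The gpi12 peak had 1716 in the library labelled dcr delta, 1107 after 8 h, 2575 after 7 d, 351 and 588 in spb75 at 30 °C and 686 in spb80. The act1 peak 156 nt after the CDS was more even, with 794 in the library labelled dcr delta, 1046 after 8 h, 927 after 7 d, 1297 and 1019 in spb75 at 30 °C and 944 in spb80. The rps13 peak had 166 in the library labelled dcr delta and 164 in spb80, against 942 after 8 h, 1395 after 7 d and 1137 and 1042 in spb75 at 30 °C. It was low in both strains other than spb75 and high in all 4 spb75 libraries. Fractions of a read, whose source is not stated, occurred at 76 of the 5' UTR peaks and 461 of the 3' UTR peaks in at least 1 library, and the act1 (both), eno101, gpi12, gpd1, por1 and rps13 peaks were among these.

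UTR signal followed CDS signal of the same gene in part. Across the 358 genes with both a 3' UTR and a CDS peak, Spearman's rank correlation ranged from 0.380 after 8 h to 0.514 in spb75 at 30 °C replicate 2. Across the 61 genes with both a 5' UTR and a CDS peak it ranged from 0.602 to 0.708. These are correlations across genes within a library, which share depth, and genes are not independent replicates.

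No UTR peak passed the test in the library labelled dcr delta, where siRNA made by Dicer is the question. None of 144 tested 5' UTR peaks and none of 953 tested 3' UTR peaks rose or fell (limma on log2 of normalised signal + 1, Benjamini-Hochberg over 8274 peaks, adjusted p under 0.05), against 0.0242% of all tested peaks that rose and 0.87% that fell. At an unadjusted p under 0.05 there were 8 of the 5' UTR and 38 of the 3' UTR peaks. Without spb80, 3 UTR peaks fell, and with total-read scaling 1 fell. The other 31 of the 5' UTR and 359 of the 3' UTR members lay in the 25% of peaks with the lowest mean and were not tested. The median log2 difference was -0.19 for 5' UTR, 0.05 for 3' UTR and -0.15 for CDS peaks, and -0.05 over all tested peaks.

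The lowest adjusted p was at the 3' UTR of gld1, glycerol dehydrogenase, with 37.0 in the library labelled dcr delta, against 169 in spb80 and 278 and 462 in spb75 at 30 °C. It lay below all 3 wild-type libraries, with a log2 difference of -2.88 (SE 0.59, limma adjusted p = 0.0913). The 3' UTR of csx1, an RNA-binding protein of the stress response, had 57.8, against 147 in spb80 and 151 and 189 in spb75. Its log2 difference was -1.46 (SE 0.45, limma adjusted p = 0.511). The 5' UTR of zym1, a metallothionein that binds zinc, had 70.1 in the library labelled dcr delta, against 12.02 in spb80 and 9.79 and 22.3 in spb75 (log2 2.26, SE 0.69, limma adjusted p = 0.509). The other UTR peaks with the smallest unadjusted p (3' UTR rises in SPAC1F5.03C, gpi12, caf5, ini1 and mug129, and falls in res2, erv29 and the4) had limma adjusted p from 0.393 to 0.595. In 5' UTRs these were rises in cuf1, SPCC622.15C, cpy1 and SPAC1705.02 and falls in msf1, sco1, SPBP23A10.11C, ysp2 and SPBC1703.13C, with limma adjusted p from 0.664 to 0.837. Strain differs with genotype in this comparison, so the 2 cannot be told apart.

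After 8 h at 37 °C, 13 UTR peaks of 11 genes rose and none fell. There were 3 rises among 150 tested 5' UTR peaks (2%) and 10 among 943 tested 3' UTR peaks (1.06%), against 6 rises among 1732 tested CDS peaks (0.346%) and 0.58% of all 8274 tested peaks that rose and 0.0967% that fell (limma, adjusted p under 0.05). In each of the 13 the 8 h value was the highest of the 6 libraries. The count depends strongly on the processing. It was 0 with total-read scaling or with all 3 wild-type libraries at 30 °C as control, 24 with a pseudocount of 10, and 1 without the filter on low peaks. It was 1 with spb75 replicate 1 and 0 with replicate 2 replaced by spb80. In 6 of the 13, spb80 lay above both spb75 libraries at 30 °C.

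The largest rise was at a peak that overlaps the 5' UTR of SPBC24C6.03, annotated as a prolyl-tRNA ligase. Its centre lies 108 nt upstream of the CDS, in front of an annotated 5' UTR of 86 nt, and it holds fractions of reads, so its signal need not come from the annotated UTR. This peak had 299 after 8 h and 131 after 7 d, against 18.5 and 16.2 in spb75 at 30 °C, and it had 47.2 in the library labelled dcr delta and 31.6 in spb80. The 8 h log2 difference was 4.04 (SE 0.55, limma adjusted p = 0.00502), and the adjusted p at 7 d was 0.103.

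Both UTRs of zym1 rose. Its 5' UTR peak, 45 nt upstream of the CDS, had 235 after 8 h and 64.2 after 7 d, against 9.79 and 22.3 in spb75 at 30 °C (8 h log2 3.90, SE 0.62, limma adjusted p = 0.0153). Its 3' UTR peak, 96 nt after the CDS, had 414 after 8 h and 90.1 after 7 d, against 53.3 and 60.9 in spb75 at 30 °C (8 h log2 2.84, SE 0.53, limma adjusted p = 0.0309). In spb80 the 5' UTR peak had 12.02 and the 3' UTR peak 14.0. A second zym1 3' UTR peak did not pass, with 110 after 8 h, against 8.98 and 26.3 in spb75 at 30 °C (limma adjusted p = 0.0845).

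The third 5' UTR rise was in msy1, a mechanosensitive ion channel, 713 nt upstream of the CDS. It had 223 after 8 h and 42.5 after 7 d, against 13.5 and 35.0 in spb75 at 30 °C (log2 3.29, SE 0.62, limma adjusted p = 0.0309).

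Among 3' UTRs, the peak in ies6, a subunit of the Ino80 chromatin remodeller, had 796 after 8 h and 196 after 7 d, against 67.4 and 98.8 in spb75 at 30 °C (log2 3.27, SE 0.56, limma adjusted p = 0.0189). A pair of adjacent peaks in mtl3, annotated as protein Mtl3, had 376 and 283 after 8 h, against 38.0 and 41.2 at the first and 44.1 and 38.2 at the second in spb75 at 30 °C. Their log2 differences were 3.22 and 2.75 (limma adjusted p = 0.0159 and 0.0341). The 5' UTR peak of mtl3 did not pass the test, with 548 after 8 h, against 566 and 245 in spb75 at 30 °C (limma adjusted p = 0.712).

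A further 5 called 3' UTR peaks were in SPCC1393.12 (uncharacterized), pex7 (an import receptor of peroxisomes), SPBC725.03 (annotated as pyridoxamine 5'-phosphate oxidase), avl9 and alp31 (tubulin cofactor A). Their log2 differences ranged from 2.52 to 2.86 and their limma adjusted p from 0.0346 to 0.0486. In avl9 the 8 h value of 251 stood against 26.3 and 50.3 in spb75 at 30 °C, but spb80 at 30 °C had 235. In pex7 it was 723, against 108 and 91.5 in spb75 and 196 in spb80.

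**Figure D4:**
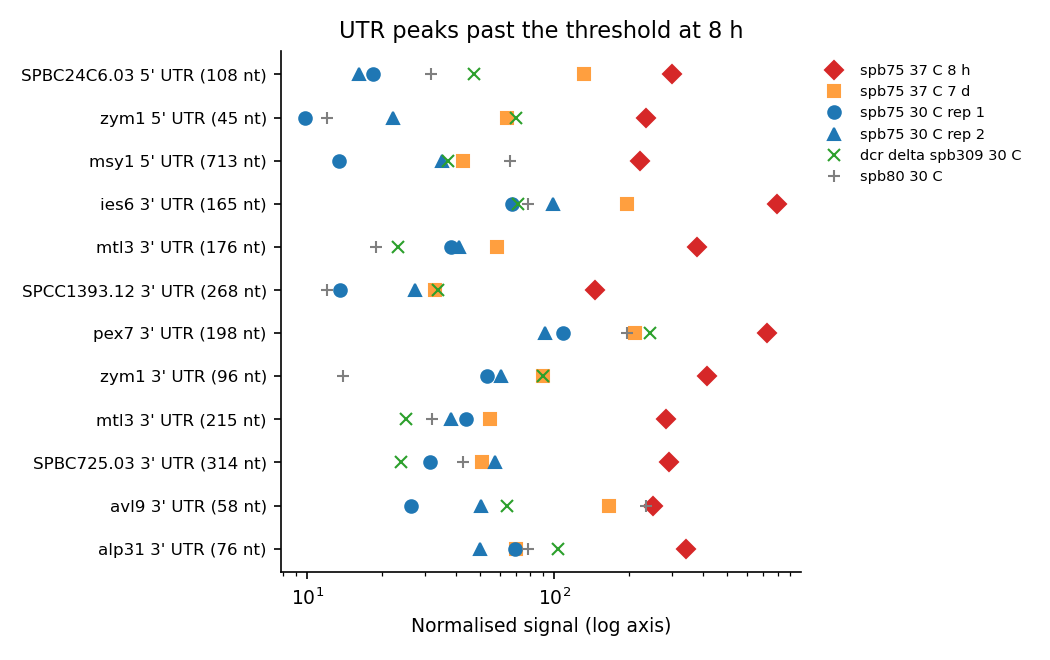
Normalised signal (log axis) in each of the 6 libraries at 12 of the 13 UTR peaks past the threshold after 8 h at 37 °C, with the distance of the peak centre from the CDS in brackets. The 8 h diamond is the rightmost point in each row, and in avl9 spb80 lies beside it, at 235 against 251.

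The falls closest to the threshold at 8 h were at the 3' UTR of gpa2, with 11.7 after 8 h, against 98.6 and 49.8 in spb75 at 30 °C (log2 -2.49, SE 0.61, limma adjusted p = 0.0688), and at the 5' UTRs of csr102, a Sec14-family lipid transfer protein, and ura3, an enzyme of pyrimidine synthesis. The csr102 peak had 20.5 after 8 h, against 92.2 and 87.5 in spb75 at 30 °C (limma adjusted p = 0.0843). The ura3 peak had 72.2, against 269.7 and 386 (limma adjusted p = 0.0860). Those that followed, in adh4, rpl3402 and fil1 (5' UTR) and in ndi1, SPBC1778.09, vht1 and SPBPB7E8.02 (3' UTR), had limma adjusted p from 0.110 to 0.128.

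As a class, UTR peaks had a higher median change from the control libraries at 8 h than CDS peaks had, which is a statement about change and not about signal level. The median log2 difference was 0.16 for tested 5' UTR peaks and 0.18 for tested 3' UTR peaks, against -0.23 for CDS peaks and -0.01 over all tested peaks. Of the tested peaks, 53.3% in 5' UTRs, 58.1% in 3' UTRs and 39.1% in CDS had a difference above 0. The control libraries' own class medians spread by 0.02 for 5' UTRs, 0.07 for 3' UTRs and 0.12 for CDS (SD, n = 2). Scaling by total reads put the median over all peaks at -1.11 and those of 5' UTR, 3' UTR and CDS peaks to -0.97, -0.94 and -1.34, so the sign of both UTR medians depends on the scaling, while CDS stayed below 0 and below both UTR classes. Over 5' UTR peaks with every base in the UTR the median was -0.09. In 3' UTRs the median was 0.21 for genes with a convergent neighbour and 0.10 for those with a tandem one.

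After 7 d at 37 °C no UTR peak passed. The test found none of 144 5' UTR peaks and none of 939 3' UTR peaks, and 0% of all 8274 tested peaks in either direction (limma, adjusted p under 0.05). At an unadjusted p under 0.05 there were 25 of the 5' UTR and 62 of the 3' UTR peaks. The class medians were -0.03 in 5' UTRs, 0.00 in 3' UTRs and -0.09 in CDS, and -0.01 over all. The lowest limma adjusted p, 0.103, belonged to the 5' UTR peak of SPBC24C6.03, and the lowest in a 3' UTR, 0.106, to dfg10, annotated as a steroid dehydrogenase, which had 455 after 7 d, against 92.2 and 68.4 in spb75 at 30 °C. The 3' UTR of ade1, an enzyme of purine synthesis, had 8.26 after 7 d, against 60.1 and 53.5 (log2 -2.64, limma adjusted p = 0.109). A pair of peaks in the long 5' UTR of ste11, the transcription factor of sexual differentiation, had 99.7 and 112 after 7 d, against 22.6 and 24.2 at the first and 28.7 and 16.7 at the second in spb75 at 30 °C (limma adjusted p = 0.156 and 0.124). The first of them also had 99.4 after 8 h, and the second 20.7. The next by p were rises in the 5' UTRs of pib2 and SPBC19C7.04C and the 3' UTRs of avl9, gpi12 and ecl2, and falls in the 5' UTRs of ysp2, SPBC1703.13C, adh4, nde1 and eis1 and the 3' UTRs of stm1, cyt1, ctt1 and mcp60, with limma adjusted p from 0.121 to 0.262.

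**Figure D5:**
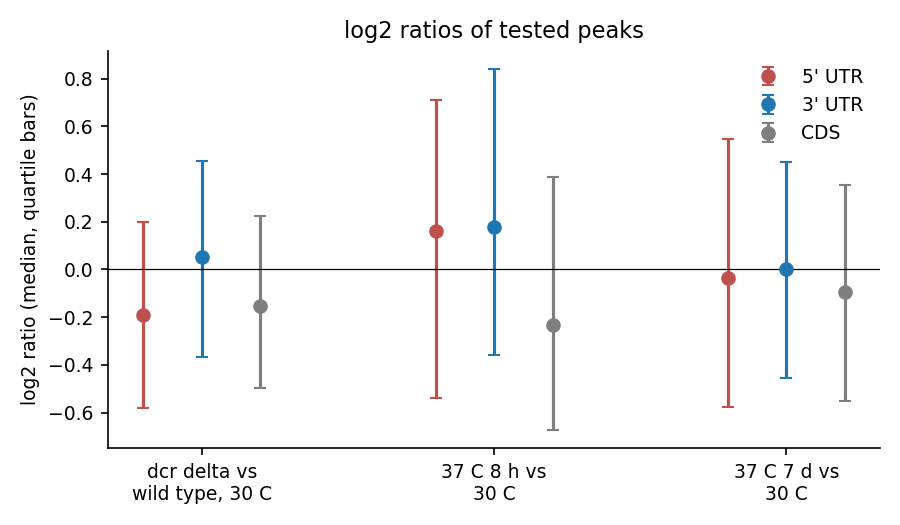
Median log2 ratio, with bars from the lower to the upper quartile, of tested 5' UTR, 3' UTR and CDS peaks in 3 comparisons. At 8 h both UTR medians lie above 0 (0.16 and 0.18) and the CDS median below it (-0.23), a sign that total-read scaling turns to below 0 in both UTR classes.

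The times at 37 °C differed at 4 UTR peaks, each lower after 7 d than after 8 h. They were 1 of 147 tested 5' UTR peaks and 3 of 944 tested 3' UTR peaks, against 8 of 1733 CDS peaks and 0.266% of all tested peaks that fell and 0.0483% that rose (limma fit of the 4 spb75 libraries, adjusted p under 0.05). The 5' UTR peak was in inv1, the secreted invertase, with 28.8 after 7 d, against 296 after 8 h (log2 -3.32, limma adjusted p = 0.0471), and 42.0 and 69.2 in spb75 at 30 °C. The 3' UTR peaks were in nup40, a nucleoporin (14.0 after 7 d, against 148 after 8 h), psi1, a DNAJ co-chaperone (12.7 against 169), and sec18, the NSF ATPase of vesicle fusion (2.62 against 86.9). For sec18 this was 1 read against 40, a ratio of 0.0301 with a 95% counting interval from 0.000743 to 0.178. For nup40 it was 4 reads against 51, and for psi1 8 reads against 128. Those next by p were falls in pbn1, a second inv1 peak, msy1 and edc1 (5' UTR) and in smp4 and tps3 (3' UTR), with limma adjusted p from 0.0530 to 0.205, and rises in fil1, csr102 and ste11 (5' UTR) and in asi1, gpa2, bcp1, osh41 and clr5 (3' UTR), with limma adjusted p from 0.0607 to 0.264. The count of 4 was 0 without the filter, with total-read scaling and with median-of-ratios scaling. The 8 h and 7 d comparisons share their control libraries.

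The ratio of UTR to CDS reads within a gene asks whether a UTR moved with its coding sequence, and it needs little scaling. At 8 h it was tested in 295 genes for 3' UTRs, where 9 rose (3.05% of those tested) and 5 fell (1.69%), and in 54 genes for 5' UTRs, where none passed and 8 had an unadjusted p under 0.05 (limma, adjusted over the genes tested). With a pseudocount of 10, or with at least 30 reads on average, 4 genes rose and 2 fell for 5' UTRs. The median log2 difference of the ratio was 0.23 for 3' UTRs, above 0 in 58.6% of genes, and 0.26 for 5' UTRs, above 0 in 61.1%. With spb75 replicate 2 replaced by spb80, none rose and none fell among 3' UTRs, and with replicate 1 replaced, 2 rose and 5 fell.

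The 5 falls lay in genes whose CDS signal was high at 8 h. In swi6, the heterochromatin protein of the HP1 family, normalised reads in the CDS peak were 235 after 8 h, against 15.8 and 17.8 in spb75 at 30 °C, and those in the 3' UTR peaks were 20.8, against 52.8 and 25.7 (log2 difference of the ratio -4.53, SE 0.68, limma adjusted p = 4.47e-08). In fes1, an Hsp70 nucleotide exchange factor, the CDS had 633 after 8 h, against 35.2 and 65.1, and the 3' UTR 57.6, against 48.0 and 25.2 (log2 -2.99, SE 0.73, limma adjusted p = 0.00242). In sol1, a SWI/SNF subunit, the CDS had 219, against 21.3 and 43.4. In pka1, the catalytic subunit of protein kinase A, it had 52.7, against 4.86 and 16.8. For vps20, an ESCRT-III subunit, the 3' UTR at 8 h rested on 2 reads, against 44 in the 2 libraries at 30 °C, a ratio of 0.148 with a 95% counting interval from 0.0174 to 0.568.

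The 9 rises were in rpb5, ddx27, tnr3, SPCC965.13, drs1, fil1, SPBC725.03, ckb2 and SPBPB7E8.01. In rpb5, a subunit of RNA polymerases, the 3' UTR had 103 normalised reads after 8 h, against 35.5 and 22.7 in spb75 at 30 °C, and the CDS 17.2, against 101 and 42.4 (log2 3.69, SE 0.67, limma adjusted p = 6.89e-06). In ddx27, an RNA helicase, the 3' UTR had 82.1, against 21.3 and 30.6, and the CDS 9.80, against 32.2 and 28.6 (log2 3.19, limma adjusted p = 0.000329). The other libraries at 30 °C also had more reads in the 3' UTR than in the CDS of both genes. For ddx27 these were 42.2 and 11.6 in spb80 and 60.2 and 16.7 in the library labelled dcr delta. For rpb5 they were 46.4 and 34.0 in spb80 and 81.4 and 30.1 in the library labelled dcr delta. The 3' UTR of SPCC965.13, annotated as a pyridoxal family membrane transporter, had 227, against 104 and 50.3. Some of these ratios rest on few CDS reads at 8 h. The tnr3 CDS held 4 reads, against 48 in the spb75 libraries at 30 °C together (ratio 0.272, 95% counting interval 0.0711 to 0.742). The ckb2 CDS had 11.0 normalised reads after 8 h, against 48.6 and 24.7 in spb75 at 30 °C.

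The transcription factor gene fil1 moved unevenly along its length at 8 h. Its 3' UTR had 418 normalised reads after 8 h, against 166 and 223 in spb75 at 30 °C, while its CDS had 152, against 304 and 332, and the ratio rose (log2 2.18, SE 0.67, limma adjusted p = 0.0341). Each of its 6 peaks in the 5' UTR lay below both spb75 libraries at 30 °C, from 8.69 against 42.0 and 52.5 to 45.6 against 113 and 92.8, and none of these passed the test. After 7 d those 6 peaks ranged from 56.7 to 156. The 3 peaks in the 5' UTR of pma1 were likewise below both control libraries at 8 h (189 to 202, against 298 to 608), whereas its 3' UTR peak had 590, against 319 and 323, and none of the 4 passed.

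Fewer genes passed in the other comparisons of the ratio. In the library labelled dcr delta, 2 of 305 genes rose (0.656%) for 3' UTRs and 0 fell, and 0 of 54 passed for 5' UTRs, where 5 had an unadjusted p under 0.05. The 2 genes were sak1 and sws1. The 3' UTR of sak1, a DNA-binding transcription factor, had 26.0 normalised reads in the library labelled dcr delta, against 4.25 to 8.28 in wild type (log2 2.71, SE 0.67, limma adjusted p = 0.0188). The CDS of sws1 rested on 2 reads in that library, against 69 in the wild-type libraries together, a ratio of 0.125 after scaling (95% counting interval 0.0148 to 0.469). In normalised reads the sws1 CDS had 2.23 in that library, 5.80 in spb80 and 24.9 and 20.7 in spb75 at 30 °C. Both were lost with a pseudocount of 10. After 7 d 1 of 295 genes rose (0.339%), tnr3, an enzyme of thiamine metabolism, whose CDS held 3 reads after 7 d, against 48 at 30 °C (ratio 0.245, 95% counting interval 0.0488 to 0.761), and 0 of 56 passed for 5' UTRs, where 4 had an unadjusted p under 0.05. The tnr3 call was lost with a pseudocount of 10, with at least 30 reads on average and with either spb75 library at 30 °C replaced by spb80. In 5' UTRs a pseudocount of 10 gave 4 falls after 7 d and the minimum of 30 reads gave 3.

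In lists of genes by function, the only UTR peaks called against 30 °C or wild type were 2 of zym1 at 8 h. Over all tested UTR peaks the share that rose at 8 h was 1.19%, so the absence of calls in a list of this size is not a result about its genes. Of 21 annotated heat shock and chaperone genes, 12 had a UTR peak. None of their 16 tested peaks passed at 8 h, with 11 above 0 and a median log2 of 0.74, against 628 of 1093 above 0 and a median of 0.17 over all tested UTR peaks. At 7 d 2 of the 16 were above 0 with a median of -0.83, against 540 of 1083 and a median of -0.01 over all tested UTR peaks. In the library labelled dcr delta 12 were above 0 with a median of 0.56, against 568 of 1097 and a median of 0.02. There the hsp16 3' UTR peak had 306, against 46.9 in spb80 and 48.8 and 161 in spb75 at 30 °C, and did not pass the test. The 3' UTR of hsp16, a small heat shock protein, had 492 after 8 h and 47.7 after 7 d, against 48.8 and 161 in spb75 at 30 °C (8 h limma adjusted p = 0.0993).

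Of 25 stress genes, 12 had UTR peaks, and 2 of 16 tested peaks rose at 8 h, both in zym1, against 13 of all 1093 tested UTR peaks. The catalase gene ctt1 had 3 peaks in its 3' UTR and 2 in its 5' UTR, and its largest, in the 3' UTR, had 110 after 8 h and 179 after 7 d, against 294 and 164 in spb75 at 30 °C. Ribosomal protein genes had UTR peaks in 25 of 139 annotated genes. None of their 33 tested peaks passed at 8 h, where 9 were above 0 with a median log2 of -0.52, at 7 d, where 11 were above 0 with a median of -0.27, or in the library labelled dcr delta, where 10 were above 0 with a median of -0.23.

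Among RNAi and heterochromatin genes, 4 of 23 had a UTR peak, cid12, clr4, rdp1 and swi6, and none of their 4 tested peaks passed in any of the 3 comparisons. The rdp1 3' UTR peak, in the gene of the RNA-dependent RNA polymerase, had 38.2 in the library labelled dcr delta, 42.5 after 8 h, 36.5 after 7 d, 29.1 and 22.0 in spb75 at 30 °C and 17.1 in spb80. UTR peaks of glycolysis genes (4 of 16 genes), translation factors (2 of 9), histones (5 of 10) and cell surface and secretion genes (6 of 12) likewise had no call in these 3 comparisons. In tif51 all 5 peaks in the 3' UTR were tested, with 8 h log2 differences from -0.26 to 0.71. In bulk libraries such as these, a change in fewer cells and a change in RNA per cell cannot be told apart.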

How the data were processed

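Small RNA from 6 libraries was analysed from 1 deposited table. The submitters' processing notes name MACS, Bowtie 0.9.9.1 and CASAVA 1.8, without saying what each did. The authors' build is not given in the sources used here. For each of 11033 MACS peaks shared by all libraries the table gives a signal. From the values, the deposited signal is reads × mean peak width (71.0 bp) / peak width; the columns of spb80 and dcr delta carry an added 8, which was removed, and 1 read adds 1.48 in the dcr delta column. Between 73.6 and 92.4% of values then lay within 0.01 of a whole read, and the rest were mostly simple fractions.

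Peaks were placed on RefSeq ASM294v3 (overlap of at least 1 bp); a peak lay on 212 of the 243 genes for tRNA, snRNA or snoRNA, against 38 to 60 after shifts of 200, 500 or 2000 bp. Reads were scaled by trimmed means (30% of log ratios and 5% of levels trimmed). In each comparison peaks in the lowest 25% by mean were left out, and limma 3.58.1 in R 4.3.3 was fitted with a variance trend to log2(normalised signal + 1), 2-sided, with Benjamini-Hochberg adjustment over all tested peaks. Fold changes are on that scale, which understates low peaks. A group of 1 library was taken to vary as the other groups do. The dcr delta library was set against the 3 wild-type libraries at 30 °C, the 8 h and 7 d libraries each with 2 spb75 libraries at 30 °C, and 7 d with 8 h in a fit of all 4. Per-gene ratios used summed normalised reads, at least 10 on average in both parts. The fits were also run on counts simulated with 1 spread setting for every peak. That run checked the code and not the calls, since the spread in these libraries need not be alike between peaks.

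The peaks named were drawn, per comparison and UTR class, from the 5 largest rises and falls past the threshold, filled up by the smallest unadjusted p, the 8 highest peaks and the 5 genes with most peaks per class, and, per ratio fit, the 5 smallest p in each direction; of the ratio fits only genes past the threshold are named. Other called peaks, members of the gene lists that are described singly (hsp16, ctt1, rdp1, the pma1 3' UTR and the second zym1 3' UTR peak) were chosen after their values were seen. The values of 1 of the 13 peaks called at 8 h are not reported here. The members and gene lists were chosen with earlier results of these data known. Intervals cover counting error only, since PCR reads carry no molecular identifiers. Analyses used Python 3.11.15, numpy 2.4.6, pandas 2.3.3 and scipy 1.17.1.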

Additional observations from a re-analysis of the deposited data

Results flagged for a closer look

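At 4 UTR peaks the effects of 8 h and of 7 d at 37 °C differed from each other in the test of that difference (limma over the 4 spb75 libraries, adjusted p under 0.05). The log2 difference of 7 d minus 8 h was -3.32 at the inv1 5' UTR, -3.63 at the psi1 3' UTR, -3.31 at the nup40 3' UTR and -4.60 at the sec18 3' UTR, which rests on 1 read after 7 d. The nup40 and psi1 values rest on 4 and 8 reads after 7 d. No group has 4 or more libraries, so single libraries were not screened as outliers.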

How the results depend on the processing

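No paired analysis was possible because the groups share no replicate number in a pair; only spb75 at 30 °C has more than 1 library. Of the alternatives to the main values, 158 left the direction and the side of the threshold in place, 69 moved a value, 12 lost a call, 1 gained one and 2 were counted as a turned sign. The 69 include counts that fell to 0 and class medians that changed sign, so this tally understates how far the calls depend on the settings. Taken singly, the peaks called at 8 h were unchanged in 5 to 8 of 12 settings, and those called between 7 d and 8 h in 4 or 5 of 9. The cause was not tested unless stated. Scaling against other libraries was added after seeing the data.

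At 8 h, 13 UTR rises became 24 with a pseudocount of 10, 1 without the filter, 0 with total-read scaling, 20 with trimmed means against either spb75 library at 30 °C, 31 (and 1 fall, against 0) against the 8 h library, and 0 with all 3 wild-type libraries as control. Scaling against the 8 h library gave 2 rises at 7 d and, between 7 d and 8 h, 2 rises and 17 falls. The 4 falls between 7 d and 8 h became 7 against spb75 replicate 1 and 0 without the filter, with total reads, with median-of-ratios scaling or against dcr delta. In dcr delta, total reads gave 1 fall.

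Class medians moved as follows. In dcr delta, the 5' UTR median was -0.11 without the filter and -0.26 with every base in the UTR, and the 3' UTR median 0.15 without the filter. At 8 h, the 5' UTR median was 0.13 with a pseudocount of 10, -0.97 with total reads and -0.086 with every base in the UTR, the 3' UTR median 0.10 without the filter and -0.94 with total reads, and the CDS median -1.34 with total reads. At 7 d, the 5' UTR median was 0.020 without the filter, 0.020 with every base in the UTR and -0.52 with total reads, where 3' UTR and CDS were -0.50 and -0.58.

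For the ratio to CDS, 5' UTRs at 8 h gave 4 rises and 2 falls with a pseudocount of 10 or at least 30 reads, and at 7 d 4 and 3 falls. In 3' UTRs both settings gave 0 rises for dcr delta and 0 at 7 d, and at least 30 reads gave 2 falls at 8 h and 1 at 7 d.

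The 5' UTR minus CDS level was -0.068 on reads not divided by width, -0.18 over the higher 75% of peaks and 0.16, past the threshold, with every base in the UTR. Density was 0.325 per kb in 5' UTRs and 1.41 in 3' UTRs with every base in the UTR, and 1.38 in 3' UTRs and 0.620 in CDS with at least 10 reads on average.

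Leaving out 1 library, with spb80 in its place at 37 °C for the counts, gave 0 to 1 UTR rises at 8 h, 0 to 3 falls in dcr delta, 3' UTR ratio counts of 0 to 4 rises and 0 to 4 falls in dcr delta, 0 to 2 rises and 0 to 5 falls at 8 h and 0 rises and 0 to 2 falls at 7 d, and 5' UTR ratio counts of 0 to 1 each way in dcr delta and 1 to 2 falls at 7 d. Medians ranged in 5' UTRs from -0.22 to -0.14 in dcr delta, 0.063 to 0.14 at 8 h and -0.029 to 0.12 at 7 d, and in 3' UTRs from 0.14 to 0.30 at 8 h. The level of 3' UTRs minus CDS ranged from -0.42 to -0.35, of 5' minus 3' UTRs from 0.47 to 0.51 and of 5' UTRs minus CDS from 0.062 to 0.12; 5 libraries cannot go below p = 0.0625 in the exact permutation test, so 12 such calls were lost by construction. At a median of 19 to 47 reads per peak, counting error limits single peaks.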
